A study of Homo sapiens with 6 samples.

Results

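The loci described here are the stretches of chromosomes 5 and 14 that hold TLX3, RANBP17, NKX2-5 and BCL11B, genes met in translocations of T-ALL, the acute lymphoblastic leukaemia that arises from T-cell precursors. Their members are the ATAC-seq peak intervals that overlap 169.5 to 174.5 Mb of chromosome 5 or 98 to 100 Mb of chromosome 14 in genome build hg19. Merged across lines wherever they shared 1 bp or more, they formed 93 regions of 40110 in all, 65 on chromosome 5 and 28 on chromosome 14. They came from 292 of the 116055 intervals listed on chromosomes 1 to 22 and X. In ATAC-seq a transposase inserts adapters where DNA is accessible, so that an interval marks open chromatin. The established T-ALL lines DND-41, HBP-ALL, CCRF-CEM, KOPT-K1, MOLT-4 and TALL-1 were grown in RPMI-1640 medium with serum and antibiotics, and the labels name no treatment, genotype or control. Each line had 1 library, so no replicate error exists and no test between lines was possible. A difference between lines and a difference between preparations cannot be told apart.

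TLX3 and NKX2-5 encode homeobox transcription factors that act in the developing nervous system and in the heart, and neither is a normal gene of the T lineage. RANBP17 encodes a protein related to nuclear transport receptors and lies directly below TLX3. BCL11B encodes a zinc finger factor needed for commitment to the T lineage, and a long gene desert downstream of it holds T-cell enhancers. In part of T-ALL a translocation between chromosomes 5 and 14 brings TLX3 or NKX2-5 close to that desert. As background knowledge, DND-41 and the line known as HPB-ALL carry such a rearrangement with TLX3, and CCRF-CEM carries it with NKX2-5. The labels spell HBP-ALL, name no rearrangement, and give no position of a breakpoint.

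Promoter sequences of RefSeq of 300 bases around the gene start, in GRCh38.p14, were on hand for 3 of the 4 genes. They are shown because the intervals at TLX3 differ between lines and because RANBP17 and BCL11B are its neighbour and its partner. Capitals mark CCAAT in TLX3, CCGCCC (a GC box) in RANBP17 and CANNTG (an E-box) in BCL11B, each searched on both strands.
TLX3, chr5:171308998-171309297, plus strand: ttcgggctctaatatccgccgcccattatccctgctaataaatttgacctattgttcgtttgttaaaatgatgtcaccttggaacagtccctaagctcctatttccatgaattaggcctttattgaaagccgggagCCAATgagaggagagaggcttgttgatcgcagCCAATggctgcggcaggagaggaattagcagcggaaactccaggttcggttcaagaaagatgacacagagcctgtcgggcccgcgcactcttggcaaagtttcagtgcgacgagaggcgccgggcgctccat
RANBP17, chr5:170861768-170862067, plus strand: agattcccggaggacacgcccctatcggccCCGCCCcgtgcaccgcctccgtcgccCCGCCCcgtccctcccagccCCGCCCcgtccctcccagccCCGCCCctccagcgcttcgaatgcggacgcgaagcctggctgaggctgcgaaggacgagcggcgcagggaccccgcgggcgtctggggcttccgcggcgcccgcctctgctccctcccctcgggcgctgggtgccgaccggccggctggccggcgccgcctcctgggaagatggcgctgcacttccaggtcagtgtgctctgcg
BCL11B, chr14:99272148-99272447, minus strand: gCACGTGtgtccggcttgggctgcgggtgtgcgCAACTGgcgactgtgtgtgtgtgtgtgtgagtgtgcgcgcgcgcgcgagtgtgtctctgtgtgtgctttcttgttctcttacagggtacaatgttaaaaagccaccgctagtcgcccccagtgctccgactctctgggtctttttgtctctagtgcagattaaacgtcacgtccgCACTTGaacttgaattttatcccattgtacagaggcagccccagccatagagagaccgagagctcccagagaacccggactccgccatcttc
These positions are in GRCh38.p14 and cannot be set beside the hg19 positions of the intervals.

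The TLX3 promoter held 2 CCAAT sites, a motif found in 34.6% of the 35116 promoters of the same length. RANBP17 held 4 CCGCCC sites, against 45.0% of promoters with any, and TLX3 held 1. BCL11B held 3 CANNTG sites, a motif of 68.7% of promoters. The 3 promoters differed in composition, with 51.3% G and C in TLX3, 76.7% in RANBP17 and 55.7% in BCL11B, beside a median of 58.7% over all promoters. None of the 3 held the TATA box TATAAA, found in 11.5% of all promoters, or the GATA motif AGATAA, found in 10.3%. Nor did they hold the RUNX motif TGTGGT (13.1% of promoters), the ETS motif CCGGAA (17.2%) or the homeobox motif TAATTA (4.84%).

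The lists held from 16507 intervals in TALL-1 to 22367 in CCRF-CEM. Read totals are not known here. The height used below is the pileup, the number of tags stacked at a summit, which was recovered from the authors' fold and p-value. At the 9053 regions with a peak in every line its median ran from 31 tags in CCRF-CEM to 44 in TALL-1. The weakest peaks, with a −log10 p under 6, had median pileups of 7 in CCRF-CEM to 10 in TALL-1, which is about where a peak could be listed at all. Where a line has no peak, nothing passed the authors' threshold, which is no measure of closed chromatin. No hg19 annotation was used, so the labelled cell type could not be set against T-cell marker genes and most intervals are given by position alone.

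Of the 93 regions, 26 (28.0%) held a peak in all 6 lines, against 22.6% of all merged regions. Another 37 (39.8%) held a peak in 1 line, against 43.2% of all regions. The loci thus divided between shared and line-only regions much as the genome did. Their median width was 490 bp, and that of all regions was 473 bp. On chromosome 5 the lines had 44 intervals in MOLT-4, 37 in CCRF-CEM, 37 in HBP-ALL, 31 in KOPT-K1, 28 in DND-41 and 25 in TALL-1. As a share of its own list MOLT-4 was at 0.230% (exact binomial 95% interval 0.167% to 0.309%) and TALL-1 at 0.151% (0.098% to 0.223%), so the intervals of the extreme lines overlapped. These intervals cover counting error only.

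**Figure D1:**
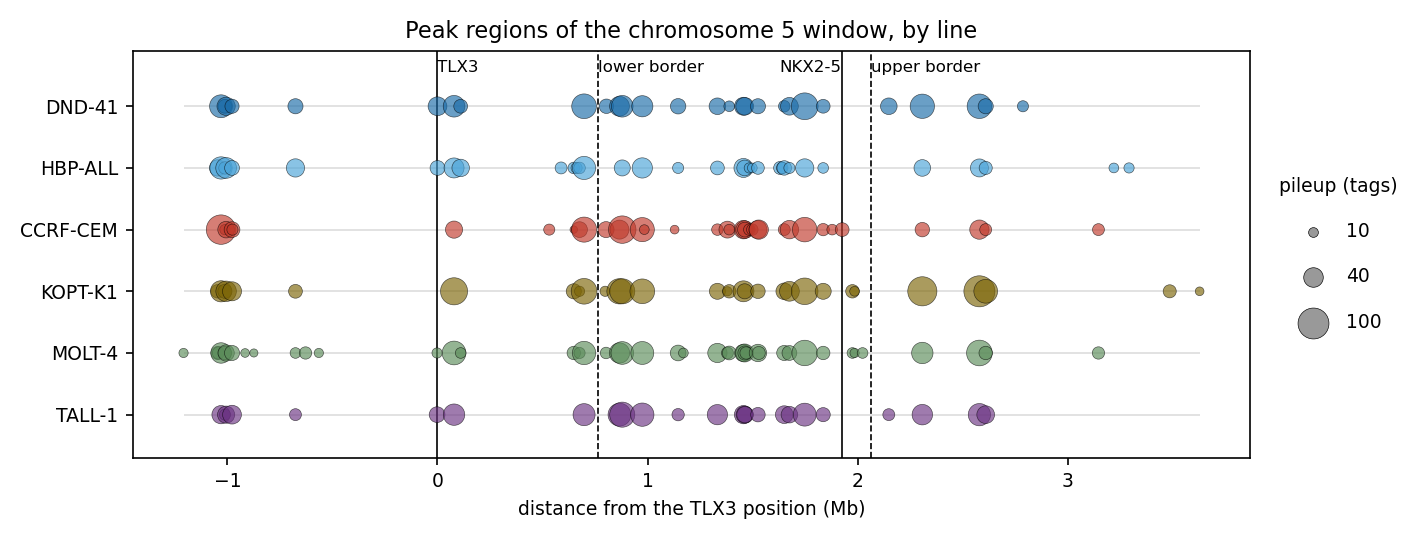
Peak regions of the chromosome 5 window in each line, placed by distance in Mb from the TLX3 position, with the area of a dot in proportion to the pileup in tags. Solid lines mark the TLX3 and NKX2-5 positions and dashed lines the borders at 171.5 and 172.8 Mb; the dots at TLX3 belong to DND-41, HBP-ALL, MOLT-4 and TALL-1, and at NKX2-5 to CCRF-CEM.

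The TLX3 position lay in an interval in DND-41 and HBP-ALL and in no other line. The merged region ran from 170735896 to 170736389 on chromosome 5 and covered the TLX3 position, which was known here only as 170.736 Mb. Its pileup was 37 in DND-41 (exact Poisson 95% interval 26.1 to 51, over a local background of 6.33) and 23 in HBP-ALL (14.6 to 34.5, over 5.48). CCRF-CEM, KOPT-K1, MOLT-4 and TALL-1 had no interval there. Regions with a peak in exactly DND-41 and HBP-ALL made up 0.643% of all merged regions, or 258. The 2 lines with the interval are those known for a TLX3 rearrangement, if HBP-ALL is HPB-ALL. Whether the interval is linked with the rearrangement was not tested. Neither peak was a strong one in its list: the −log10 p of 16.9 stood at percentile 48.6 of the DND-41 list, and 8.33 stood at percentile 18.3 of the HBP-ALL list. With a −log10 p of at least 10 required, HBP-ALL no longer had a peak there.

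MOLT-4 and TALL-1 had a separate interval a little lower on the chromosome. It ran from 170733916 to 170734405, ending 1595 bp below the TLX3 position, with a pileup of 11 in MOLT-4 (5.49 to 19.7) and 26 in TALL-1 (17.0 to 38.1). The local backgrounds were 1.11 and 2.74. DND-41 and HBP-ALL had no interval there, so the pairs of lines did not overlap at either region. A peak in exactly MOLT-4 and TALL-1 was found at 0.591% of all merged regions. CCRF-CEM and KOPT-K1 had neither interval.

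Above TLX3, all 6 lines shared a region at 170814300 to 170815577, 78300 bp from the gene position. Its pileup was 49 in DND-41, 42 in HBP-ALL, 31 in CCRF-CEM, 77 in KOPT-K1 and 59 in MOLT-4, with TALL-1 at 48. NPM1, which encodes a nucleolar protein, is the next protein-coding gene above TLX3 in the GRCh38.p14 gene order. A further region, at 170845736 to 170847302, was among the 3 widest of the window at 1567 bp. It held pileups of 20 in DND-41, 32 in HBP-ALL and 12 in MOLT-4. The MOLT-4 interval met the HBP-ALL interval at a shared end base, 170847068, and did not meet that of DND-41. A peak in 3 lines was found at 8.02% of all merged regions, and the share for exactly these 3 lines was not counted.

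RANBP17 is the next protein-coding gene below TLX3 in the same gene order, followed by GABRP. No line had an interval in the 562216 bp from 170171700 to 170733915, directly below the TLX3 region. It was the longest stretch of the chromosome 5 window without intervals. RANBP17 is 437998 bp long in GRCh38.p14, shorter than that stretch. Its hg19 position was not looked up, so how much of the gene lies in the stretch is not given here.

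**Figure D2:**
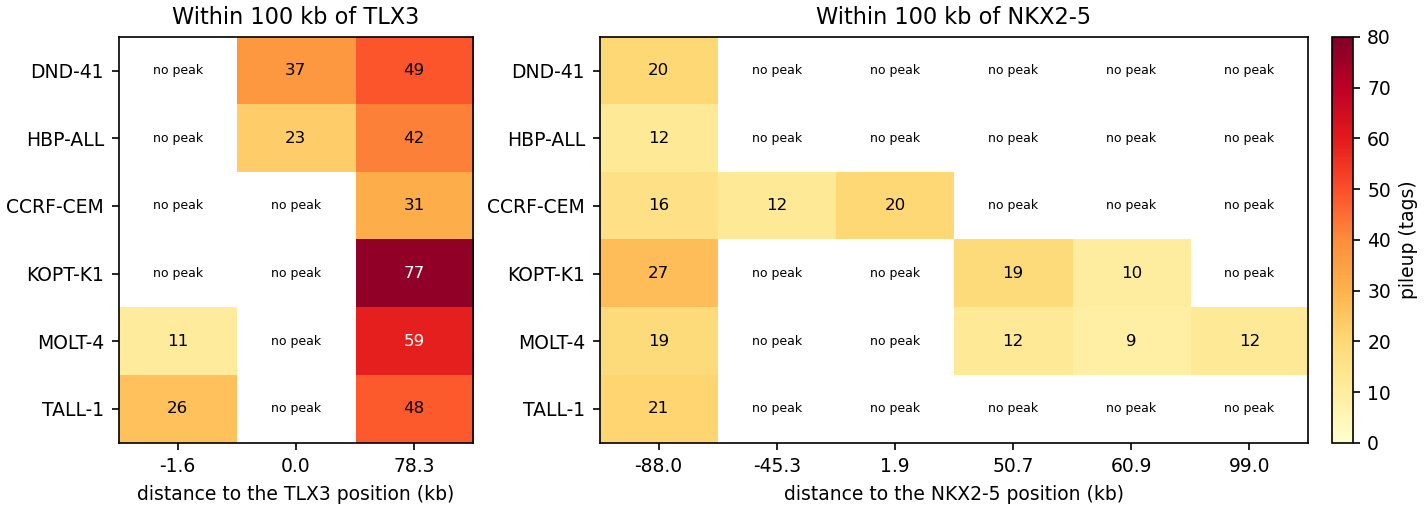
Pileup in tags of every region within 100 kb of the TLX3 and NKX2-5 positions, with lines down the page and regions by their distance in kb. At TLX3 DND-41 (37) and HBP-ALL (23) alone had a peak covering the position, and near NKX2-5 CCRF-CEM alone had peaks of 12 and 20.

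NKX2-5 had a nearby interval in CCRF-CEM alone. It lay at 172661917 to 172662293, within 1917 bp of the NKX2-5 position, known here only as 172.66 Mb. The pileup was 20 (12.2 to 30.9) over a local background of 1.60, with a −log10 p of 16.1, at percentile 49.7 of the CCRF-CEM list. It was the strongest of the 6 line-only regions of CCRF-CEM in the window. CCRF-CEM also had a line-only interval 45269 bp below the position, at 172614317 to 172614731, with a pileup of 12. Line-only peaks of CCRF-CEM were common, at 16.0% of all merged regions. CCRF-CEM is the line known for the NKX2-5 rearrangement; whether the peaks are linked with it was not tested.

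On the other side of NKX2-5 the intervals belonged to KOPT-K1 and MOLT-4. At 172710678 to 172711040 the pileup was 19 in KOPT-K1 and 12 in MOLT-4. At 172720871 to 172721356 it was 10 in KOPT-K1 and 9 in MOLT-4. Both regions held a peak in exactly these 2 lines, as did 0.977% of all merged regions. MOLT-4 alone had a further interval at 172758971 to 172759201, with a pileup of 12. Apart from the 19 in KOPT-K1 these heights were near the 9 tags of the weakest peaks of both lists. DND-41, HBP-ALL and TALL-1 had a single region within 100 kb of NKX2-5, the shared one at 172571395 to 172572041. Its pileup was 16 in CCRF-CEM, 27 in KOPT-K1, 21 in TALL-1, 20 in DND-41, 19 in MOLT-4 and 12 in HBP-ALL, so CCRF-CEM was not high there.

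Between TLX3 and NKX2-5 the gene order has 15 protein-coding genes, among them NPM1, the receptor ligand gene FGF18, the ubiquitin ligase gene FBXW11, the kinase gene STK10 and the phosphatase gene DUSP1. The densest 200 kb of the window, 172.1 to 172.3 Mb, held 10 regions, of which 3 had a peak in all lines and CCRF-CEM had 9. The next, 169.7 to 169.9 Mb, held 7, of which 4 had a peak in all lines. By mean rank of the −log10 p within the lists, the strongest shared region was 171433187 to 171434337, with pileups of 64 in DND-41, 56 in HBP-ALL, 66 in CCRF-CEM, 57 in MOLT-4, 51 in TALL-1 and 69 in KOPT-K1. The widest region, 1636 bp from 172482954, had 35 in HBP-ALL and 55 to 75 in the other lines, and the region of 1383 bp from 172410346 had 13 in HBP-ALL and 23 to 41 in the others. HBP-ALL was thus the lowest line at both. Of the line-only regions, MOLT-4 had 9, CCRF-CEM 6, HBP-ALL 6, KOPT-K1 3, DND-41 2 and TALL-1 0. For MOLT-4 this was 13.8% of the 65 regions, against 4.55% of all merged regions. For CCRF-CEM and HBP-ALL it was 9.23% each, against 16.0% and 11.6% of all. KOPT-K1 was at 4.62% against 3.73%, DND-41 at 3.08% against 3.56%, and TALL-1 at 0 against 3.71%, so these 3 were near their share of all regions given the few regions counted. The strongest were 171540029 to 171540409 in DND-41 (pileup 22), 172366584 to 172367416 in HBP-ALL (18), 174220718 to 174220960 in KOPT-K1 (18) and 170108193 to 170108403 in MOLT-4 (16).

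Peak heights were compared on the sides of borders at 171.5 and 172.8 Mb, which were chosen from earlier results of these lists. Differences across them thus describe the lists and are no independent evidence of a level change. The relative pileup is the log2 pileup of a line against the mean of the 6 lines at a shared region, centred on the line's median over all 9053 shared regions. The window held 6 shared regions below the lower border, 10 between the borders and 3 above the upper border. Binomial 95% intervals of a median describe the spread between regions, and neighbouring regions are not independent.

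CCRF-CEM showed the largest fall across the upper border of the 6 lines. Its median relative pileup was −0.53 above it, where the 3 regions stood at −0.80, −0.31 and −0.53, and 0.31 between the borders (−0.33 to 0.68), a difference of −0.84. Set against the median of the 6 lines in place of their mean, the level above the border was −0.26. The 3 pileups above were 22, 39 and 15 in CCRF-CEM, against 62, 63 and 24 in DND-41 and 89, 101 and 59 in KOPT-K1. HBP-ALL was as low there, with pileups of 29, 34 and 18 and a median relative pileup of −0.63. The low level at these 3 regions was thus not particular to CCRF-CEM. The closest shared regions on the sides of this border ended at 172572041 and began at 173043034, 470992 bp apart. The CCRF-CEM interval near NKX2-5 lies inside that distance, and so do intervals of KOPT-K1, MOLT-4, DND-41 and TALL-1. At 172883752 to 172884208, for example, the pileup was 29 in DND-41 and 15 in TALL-1.

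The low level of CCRF-CEM went on to the end of the chromosome. Over all 51 shared regions above 172.8 Mb its median was −0.74 (−0.89 to −0.60), and 51 of 51 regions lay below 0. On chromosome 5 below the window its median was 0.36 over 389 regions, of which 93 lay below 0. In the window below the lower border its median was 0.04 (−0.46 to 1.02), with 3 of 6 regions below 0. It was higher by 0.28 between the borders, so its level was not even up to 172.8 Mb. At least 1.5-fold lower than the mean were 33 of the 51 regions, against 14.9% of all shared regions. The difference between the part above and the part between the borders was −1.06 with these 51 regions. Against each other line singly it ran from −0.90 with HBP-ALL to −1.31 with MOLT-4. With the trend of relative pileup with the local density of shared regions removed, the median over the 51 regions was −0.71.

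HBP-ALL was also low in the upper part, and its larger difference lay at the lower border (−0.41), where the intervals of the medians overlapped. Its median was −0.50 between the borders (−1.02 to −0.01), where 9 of 10 regions lay below 0, and −0.09 below the lower border (−0.28 to 0.35). Across the upper border it differed by −0.13. Just above the lower border, at 171614928 to 171615893, the pileup was 27 in HBP-ALL, against 49 in DND-41, 79 in CCRF-CEM, 54 in MOLT-4, 66 in TALL-1 and 66 in KOPT-K1. At the neighbouring region, 171601779 to 171602889, HBP-ALL alone had no interval, against pileups of 38 to 67 in the others. A region missed by HBP-ALL alone made up 0.738% of all merged regions. Over the 51 regions to the end of the chromosome HBP-ALL stood at −0.54 (−0.63 to −0.42), with 51 of 51 below 0. At least 1.5-fold lower were 20 of them, against 5.96% of all shared regions.

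KOPT-K1 had the highest median of the 6 lines in the upper part. Its 3 window regions above 172.8 Mb stood at 1.03, 0.87 and 1.26, and all 51 regions to the chromosome end lay above 0, with a median of 0.52 (0.48 to 0.65). At least 1.5-fold higher were 23 of the 51, against 4.18% of all shared regions. Its level below the lower border was 0.37 (−0.12 to 0.67) and between the borders 0.32 (−0.14 to 0.55), a difference of −0.06 at the lower border. On chromosome 5 below the window it was at 0.18. Across the upper border it was higher by 0.71 with the 3 window regions and by 0.20 with all 51. The size of that change thus rests on the regions nearest the border. With all 51, MOLT-4 was higher by 0.30, TALL-1 by 0.24 and DND-41 by 0.18, so the rise was not particular to KOPT-K1. MOLT-4 was at 0.46 (0.36 to 0.52) over the 51 regions and at −0.20 on the chromosome below the window. DND-41, the other line with an interval at TLX3, stayed near 0 throughout, at −0.05 below the lower border, −0.07 between the borders and 0.11 over the 51 regions. TALL-1 was at −0.42 below the lower border, −0.14 between and 0.10 over the 51 regions. As the 6 lines share 1 mean, low values in CCRF-CEM and HBP-ALL raise those of the others.

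**Figure D3:**
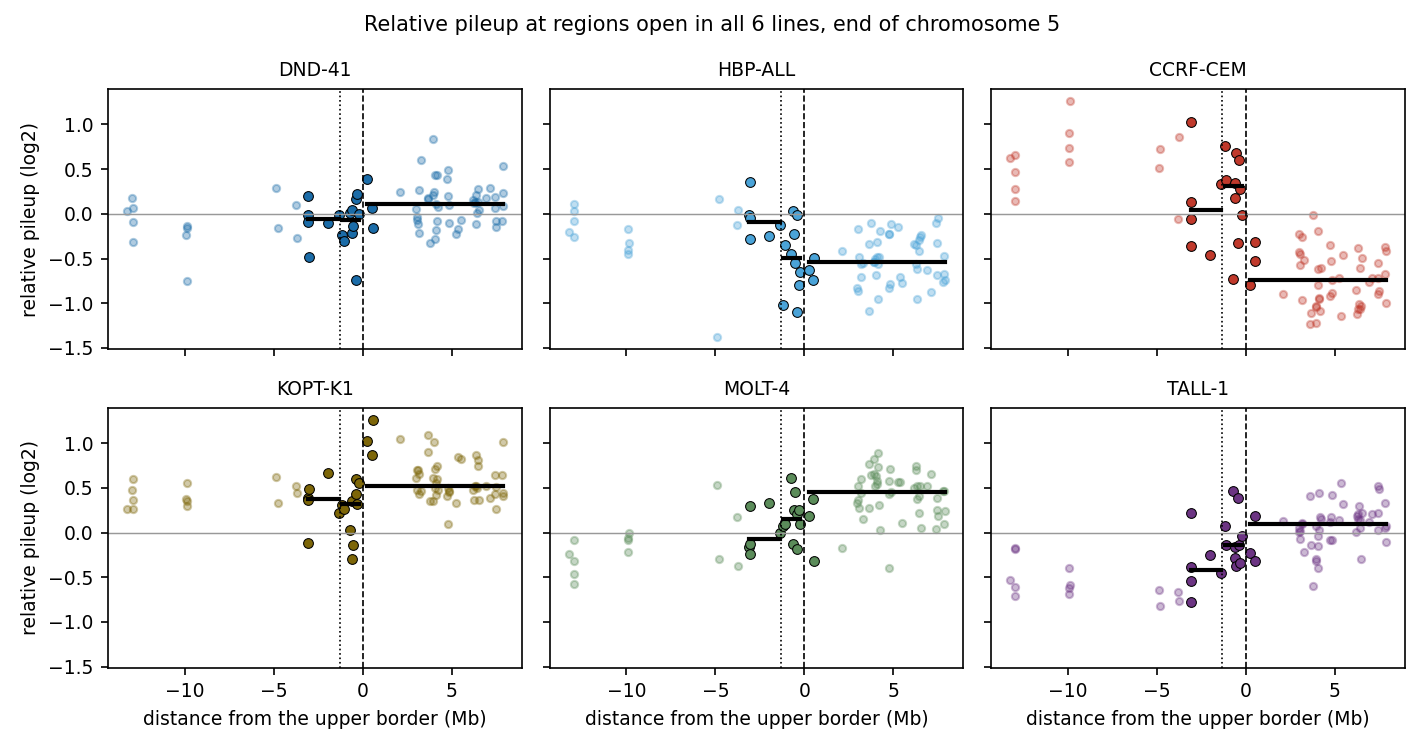
Relative pileup (log2) at regions with a peak in all 6 lines, by distance in Mb from the upper border at 172.8 Mb, 1 panel per line. Outlined points are regions of the window, the dotted line is the lower border, and bars are medians over the window's regions below the lower border, those between the borders, and all 51 regions above the upper border; CCRF-CEM falls to −0.74 and HBP-ALL to −0.54 in the last part.

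On chromosome 14 the BCL11B window held 28 regions, 7 of them with a peak in all lines. The lines had 17 intervals in HBP-ALL and in MOLT-4, 15 in DND-41, CCRF-CEM and KOPT-K1, and 11 in TALL-1. BCL11B is read on the minus strand, so the desert downstream of it lies at lower positions, and in the gene order VRK1 is its next protein-coding neighbour below and SETD3 above. No line had an interval in the 702034 bp from 98690459 to 99392492. This stretch parted a lower group of 18 regions from an upper group of 10. The densest 200 kb of the window was 98.6 to 98.8 Mb, just below the stretch, with 8 regions.

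In that dense group DND-41 had a peak at 8 of 8 regions, CCRF-CEM, HBP-ALL, KOPT-K1 and MOLT-4 at 6 and TALL-1 at 4. The 8 include the region from 98641711, found in DND-41 alone, and that from 98602439, found only in DND-41 and CCRF-CEM. The first is listed only through its DND-41 peak. Over all 40110 merged regions DND-41 had a peak at 17766, CCRF-CEM at 22213 and TALL-1 at 16338. The DND-41 peaks at 98602439 and 98641711 were weak, with −log10 p of 9.01 and 5.17. With a −log10 p of at least 10, DND-41 and KOPT-K1 had 6 each, CCRF-CEM and HBP-ALL 4 each, and MOLT-4 and TALL-1 3 each, so DND-41 no longer stood above KOPT-K1. The strongest shared region there, 98676327 to 98677123, had pileups of 51 in DND-41, 30 in HBP-ALL, 32 in CCRF-CEM, 34 in MOLT-4, 21 in TALL-1 and 34 in KOPT-K1. At 98639636 to 98640222 they were 36 in DND-41, 19 in HBP-ALL, 16 in CCRF-CEM, 33 in MOLT-4, 41 in TALL-1 and 29 in KOPT-K1. TALL-1 was thus lowest at the first and highest at the second of these regions. At 98633946 to 98634418 DND-41 had 36 and CCRF-CEM 9, with 22 to 26 in HBP-ALL, KOPT-K1 and MOLT-4 and no interval in TALL-1, which also alone lacked one at 98690085 to 98690458. CCRF-CEM alone lacked an interval at 98655549 to 98656383, where DND-41 had 33 and the other lines 14 to 29. A region missed by CCRF-CEM alone made up 2.42% of all merged regions, and one missed by TALL-1 alone 1.57%, both more common than one missed by DND-41 or HBP-ALL.

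Over the 6 shared regions below the empty stretch DND-41 had a median relative pileup of 0.35, and 6 of 6 regions lay above 0. CCRF-CEM had −0.32, with 5 of 6 below 0. Over all 7 shared regions of the window DND-41 had 0.29, which became 0.08 against the median of the 6 lines (0.25 for the 6 regions), and CCRF-CEM had −0.29, which became −0.04 with a mean pileup of at least 20 required (−0.20 for the regions below the stretch). The intervals were wide, 0.02 to 0.67 in DND-41 and −0.97 to 0.18 in CCRF-CEM, and overlapped. In the 10 Mb below the window DND-41 stood at −0.10 over 35 regions and CCRF-CEM at 0.02. From 100 Mb to the chromosome end they stood at −0.29 and 0.11 over 48 regions. The order of DND-41 and CCRF-CEM below the stretch was therefore the opposite of that in the flanks. It rests on 6 regions, and in the lower flank the intervals of the medians overlapped (−0.21 to 0.02 in DND-41, −0.27 to 0.17 in CCRF-CEM). HBP-ALL was at −0.13, KOPT-K1 at 0.12, MOLT-4 at 0.10 and TALL-1 at 0.08 below the stretch.

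**Figure D4:**
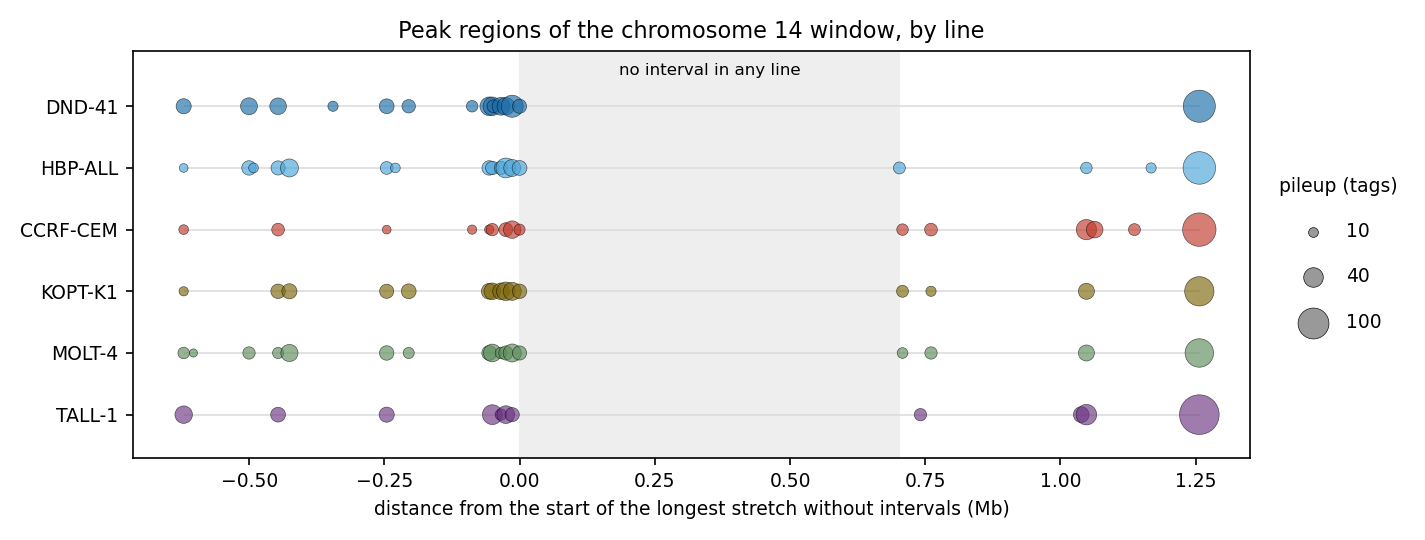
Peak regions of the chromosome 14 window in each line, by distance in Mb from the start of the longest stretch without intervals (grey), with the area of a dot in proportion to the pileup in tags. DND-41 has 14 regions below the stretch and 1 above it, while CCRF-CEM has 9 below and 6 above. Of those 6, the regions from 99753569 and 99827221 are listed only through CCRF-CEM. Over all merged regions CCRF-CEM also had a peak at more than DND-41, 22213 against 17766.

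Over all 40110 merged regions CCRF-CEM had a peak at the most, 22213, DND-41 at 17766 and the other lines at 16338 to 21873. Among the 10 regions above the stretch DND-41 had the fewest, CCRF-CEM the most with 6, and the other lines 4 each. Of the 6, those from 99753569 and 99827221 are listed only through their CCRF-CEM peaks. HBP-ALL and TALL-1 also had line-only regions there, and DND-41 did not, so the counts partly follow from the listing. DND-41 had 1 region there, the shared one at 99946801 to 99947990, with pileups of 108 in DND-41, 111 in HBP-ALL, 117 in CCRF-CEM, 85 in MOLT-4, 165 in TALL-1 and 90 in KOPT-K1. It was the strongest and widest region of the window. The other HBP-ALL peaks above the stretch were weak, with −log10 p of 9.43, 5.30 and 6.68. With a −log10 p of at least 10, HBP-ALL too had only this shared region there, so the low count was not particular to DND-41. At 99738286 to 99738855 DND-41 alone had no interval, while the pileup was 14 in HBP-ALL (7.65 to 23.5), 43 in CCRF-CEM (31.1 to 57.9), 27 in KOPT-K1 and in MOLT-4 (17.8 to 39.3), and 44 in TALL-1 (32.0 to 59.1). A region missed by DND-41 alone made up 0.551% of all merged regions. The interval of the HBP-ALL pileup overlapped that of KOPT-K1 and MOLT-4. The HBP-ALL peak had a −log10 p of 5.30, at percentile 2.44 of its list. With a −log10 p of at least 10, HBP-ALL as well as DND-41 lacked a peak there. CCRF-CEM alone had an interval further up, at 99753569 to 99754125, with a pileup of 29 (19.4 to 41.6) over a background of 1.88. TALL-1 alone had an interval below the region that DND-41 missed, at 99728894 to 99729138, with a pileup of 26. Which of these lie in BCL11B is not given here, since no hg19 annotation was used.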

How the data were processed

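The data were the peak lists that the authors deposited for the ATAC-seq libraries of the 6 lines. Per the submitters' processing notes, MACS2 2.1.1.2016030, SAMtools, Picard and Bowtie2 were used with hg19; peak settings, and whether reads were shifted for Tn5, were not given in the sources used here. The deposited lists give a score, a fold over the local background, and −log10 p and q for each summit. Intervals on chromosomes 1 to 22 and X were joined per line, keeping the strongest summit, and merged across lines at 1 bp of overlap. Positions are 1-based. Pileups were recovered as the whole number t with fold (t + 1) / (c + 1), for background c, and the Poisson p of more than t tags, within 0.001 of the authors' −log10 p; this succeeded for at least 99.86% of lines in each list. Recovery, merging and relative pileups were tested on simulated data. With 1 library per line, no test was run. Windows, gene positions and borders come from a stated rule; members, lists and borders were chosen with earlier results of these data known. Named regions follow a rule: those within 100 kb of TLX3 or NKX2-5; per window the 3 strongest shared and 3 widest regions, the 2 densest 200 kb, and per line the strongest line-only region and the strongest missed by it alone; others named were chosen after their values were seen. Tags are not independent molecules, so intervals cover counting error only. Alternatives were a −log10 p of at least 10, equal numbers of strongest peaks, shorter distances, stricter overlap, other scalings and shifted borders. Tools were scipy 1.17.1, pandas 2.3.3, numpy 2.4.6 and matplotlib 3.10.9 under Python 3.11.15.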

Additional observations from a re-analysis of the deposited data

Results flagged for a closer look

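TALL-1 had 11 intervals in the chromosome 14 window, set apart from the other 5 lines at 15 to 17 by a gap of 0.667 of the whole range, over Dixon's 95% critical value. The lines are 6 different lines and not replicates, and 10 measures were looked at in this way, of which chance flags about 1 in 20. As a share of its own list TALL-1 (0.0666%) was level with CCRF-CEM (0.0671%).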

How the results depend on the processing

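No paired analysis was possible because each line had 1 library. With a −log10 p of at least 10, intervals fell to 28 in the chromosome 5 window for MOLT-4 and to 8 for HBP-ALL and 10 for MOLT-4 in the chromosome 14 window. Within 100 kb of TLX3 they fell to 1 in HBP-ALL, which lost its interval at TLX3, and to 1 in MOLT-4. Within 100 kb of NKX2-5 they fell to 0 in HBP-ALL and 1 in MOLT-4. Equal numbers of the strongest peaks left 9 intervals for HBP-ALL on chromosome 14. Within 50 kb of TLX3 there were 0 intervals in CCRF-CEM and KOPT-K1 and 1 each in DND-41, HBP-ALL, MOLT-4 and TALL-1. Within 50 kb of NKX2-5 there were 2 in CCRF-CEM and 0 in each of TALL-1, MOLT-4, KOPT-K1, HBP-ALL and DND-41. Set against the median of the 6 lines, CCRF-CEM stood at −0.26 over the 3 regions above the upper border. Carried to the end of chromosome 5, an extension added after seeing the data, KOPT-K1 stood at 0.52, with a difference of 0.20 across the border, and MOLT-4 at 0.46; with the density trend also removed they stood at 0.57 and 0.40. The single-line comparisons of CCRF-CEM, the lower part of chromosome 14 and the stricter threshold in its densest 200 kb, where MOLT-4 kept 3 regions of 6, were also added after seeing the data. So was the stricter threshold above the longest stretch of chromosome 14 without intervals. For the 7 shared regions of chromosome 14, DND-41 moved from 0.29 to 0.08 against the median of the 6 lines and CCRF-CEM from −0.29 to −0.04 at a minimum mean pileup of 20. Shifted borders, a minimum mean pileup of 20 and removal of the density trend within the window kept each relative pileup inside its interval. For the 3 regions above the upper border it stayed inside its range. No shared region lay between 172572041 and 173043034, so shifting the upper border by 100 kb moved none and could not change the values. Nor did a shift of the lower border upward by 100 kb, as the next shared region began at 171614928. The minimum of 20 dropped none of the 3 regions above the upper border. The cause of the changes above was not tested. The stricter overlap kept the counts of regions within 1.5 times. The lists limit what a missing peak shows, since read totals are not known.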

Other observations

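Among the 9 regions of the chromosome 5 window with a peak in MOLT-4 alone, pileups ran from 7 to 16, beside a median of 9 for the weakest peaks of that list. Of these, 170108193 to 170108403 (−log10 p 13.8) stood at percentile 45 of the MOLT-4 list and the one from 172204601 (11.7) at percentile 36.4, and the other 7 stood lower, down to percentile 1.16. At the lower end of the chromosome 5 window, the shared region 169705540 to 169706494 had a pileup of 91 in CCRF-CEM, against 35 to 55 in the other lines, the highest relative pileup of CCRF-CEM in the window at 1.02. At 170059917 to 170060647 CCRF-CEM alone had no interval, where HBP-ALL had a pileup of 35, DND-41 24, KOPT-K1 20, TALL-1 15 and MOLT-4 12; a gap in CCRF-CEM alone was found at 2.42% of all merged regions.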
